A study of Mus musculus with 7 samples.

Results

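ATAC-seq, in which the Tn5 transposase cuts and tags accessible DNA, was used to follow open chromatin while mouse embryonic fibroblasts (MEFs) were reprogrammed. Peaks of all 7 libraries were merged where they touched or overlapped, which gave 104346 regions. The regions described here are the 1591 that had a peak in embryonic stem cells (ESCs) and on day 1 of induction and none on day 0, and they are called early-opened ESC regions below. They were chosen by those 3 libraries, so presence on day 0, on day 1 and in ESCs is the definition and not a result. "Opened" means that a peak was called on day 1 and not on day 0, and a region that lay just under the calling threshold on day 0 counts as opened.

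The MEFs came from mid-gestation embryos of a cross between homozygous B6;129S4 mice with a tetO-driven cassette of *Pou5f1* (Oct4), *Klf4*, *Sox2* and *Myc* (OSKM) in the *Col1a1* locus and B6.Cg mice with rtTA*M2, the doxycycline-dependent transactivator, in the ubiquitously active *Gt(ROSA)26Sor* locus. All MEF libraries, day 0 included, carry both alleles. Day 0 cells had no treatment, and the other MEF libraries were collected after 1, 2, 3, 6 and 9 days of doxycycline at 2 µg/mL. The ESCs are of the line Bruce-4, were untreated and carry the genotype of the MEFs in the labels. Each time-point has 1 library of unsorted cells, so no value below has a replicate, no test between time-points is possible, and intervals cover counting error only. In a bulk library, a peak in few cells and a weak opening in many cannot be told apart.

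The labels were checked against markers by a peak within 1000 bp of a transcription start site (TSS). Of 8 fibroblast markers 7 had one on day 0 and 2 in ESCs. Of 8 ESC markers only *Zfp42* had one in the ESC library, against 3 on day 0, although 6 of the 8 had an ESC peak within 10 kb, and 5 a day 0 peak. The ESC library had a promoter peak at 46.0% of protein-coding genes, the lowest of the 7 libraries, which ran up to 54.5% on day 0. An ESC region without a called peak therefore drops out of the set described here, and the ESC list of 27074 peaks is the shortest of all.

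The reprogramming factors bind DNA directly. Oct4 and Sox2 are pioneer factors that can engage sites within nucleosomes, often side by side on a composite motif, and Klf4 recognises CACCC and GC-rich boxes. MEF enhancers are held in large part by AP-1, TEAD and RUNX factors. Early reprogramming is known for loss of the mesenchymal programme and gain of epithelial genes, while most of the pluripotency network is activated late. Regions of the ESC landscape that are met after 1 day are therefore of interest as the earliest part of it.

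The sequence of the regions is given first, because the factors induced have known motifs. The first set holds early-opened ESC regions nearest to genes of the pluripotency, signalling, epithelial and 9TR lists (described below) with a peak in every library from day 1 on, ordered by how many kinds of motif they hold. Of the 8 regions that the selection returned, 4 held a match to the OCT4-SOX2 composite (TTGTNATGC), octamer (ATGCAAAT), SOX (ACAATGG), KLF (CCACNCCC) or ESRRB (TCAAGGTCA) letters and are shown. The regions of *Sall1*, *Id3*, *Id1* and *Fgfr1* held no such match in this window. Each line is the central 200 bp of the merged region on the plus strand of mm10. This window can miss the day 1 or ESC peak. The *Elf3* match lies beyond the day 1 peak (135217576-135217794) but within the ESC peak. The *Sall1* window (89043268-89043467) lies outside the ESC peak (89043506-89043924). Capitals mark the matches, which are KLF in *Cldn3* and *Elf3*, octamer on the minus strand in *Ehf* and ESRRB on the minus strand in *Klf5*. Letters of other factors are left unmarked. The *Klf5* window also holds the AP-1 and RUNX letters, and the *Ehf* window the CTCF core (letters given below).
*Cldn3* (chr5:134985933-134986132, plus strand): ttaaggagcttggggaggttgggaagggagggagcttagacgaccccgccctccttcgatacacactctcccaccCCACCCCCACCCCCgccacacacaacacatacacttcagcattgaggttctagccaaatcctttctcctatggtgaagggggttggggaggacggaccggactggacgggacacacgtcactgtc
*Ehf* (chr2:103310749-103310948, plus strand): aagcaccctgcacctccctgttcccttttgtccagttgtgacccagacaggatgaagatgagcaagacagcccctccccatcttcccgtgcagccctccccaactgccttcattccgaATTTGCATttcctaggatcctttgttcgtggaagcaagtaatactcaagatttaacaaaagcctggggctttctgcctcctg
*Elf3* (chr1:135217717-135217916, plus strand): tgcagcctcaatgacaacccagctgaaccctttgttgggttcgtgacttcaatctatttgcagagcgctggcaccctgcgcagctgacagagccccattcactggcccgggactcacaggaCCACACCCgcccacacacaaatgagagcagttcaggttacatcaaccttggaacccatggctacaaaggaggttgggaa
*Klf5* (chr14:99449315-99449514, plus strand): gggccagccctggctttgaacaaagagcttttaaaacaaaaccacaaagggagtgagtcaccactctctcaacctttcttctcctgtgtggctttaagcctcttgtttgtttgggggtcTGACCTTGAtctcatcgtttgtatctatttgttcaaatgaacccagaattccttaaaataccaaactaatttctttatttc

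The second set, chosen after the values were seen, holds the 8 regions with a composite match and a peak in every library from day 1 on that lie nearest to a protein-coding TSS. Each line is 100 bp of mm10 read 5′ to 3′ on the strand of the match, with the composite in capitals at the same place in every line.
*Ppp2r2d* (chr7:138850230-138850329, plus strand): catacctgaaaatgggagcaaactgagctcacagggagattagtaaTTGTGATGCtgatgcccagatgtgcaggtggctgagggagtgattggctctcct
*Lax1* (chr1:133694588-133694687, minus strand): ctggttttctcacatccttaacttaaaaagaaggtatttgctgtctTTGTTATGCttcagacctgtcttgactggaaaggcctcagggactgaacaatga
*Limd2* (chr11:106167474-106167573, minus strand): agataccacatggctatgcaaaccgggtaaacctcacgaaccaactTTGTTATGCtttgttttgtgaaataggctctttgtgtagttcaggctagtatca
*Tdrd12* (chr7:35530588-35530687, minus strand): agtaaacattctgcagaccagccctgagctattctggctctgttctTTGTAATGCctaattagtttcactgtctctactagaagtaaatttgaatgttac
*H2al2a* (chr2:17989255-17989354, plus strand): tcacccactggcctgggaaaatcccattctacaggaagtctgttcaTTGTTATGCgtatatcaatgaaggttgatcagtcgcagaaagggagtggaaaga
*Tsku* (chr7:98370024-98370123, minus strand): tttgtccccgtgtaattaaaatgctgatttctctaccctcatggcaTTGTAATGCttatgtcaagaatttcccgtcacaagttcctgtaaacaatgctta
*Nacc1* (chr8:84678431-84678530, minus strand): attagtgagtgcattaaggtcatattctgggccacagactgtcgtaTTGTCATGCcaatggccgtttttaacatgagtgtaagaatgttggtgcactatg
*Gsx2* (chr5:75085319-75085418, minus strand): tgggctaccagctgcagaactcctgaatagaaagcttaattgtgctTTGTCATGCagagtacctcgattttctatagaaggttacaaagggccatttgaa

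The regions of the second set lie 3218 to 9336 bp from the nearest protein-coding TSS, 4 of them in introns and 4 between genes. None of the 8 continues from the composite into the full octamer. *Nacc1* encodes a BTB-domain protein of the ESC regulatory network, *Tdrd12* a protein of the piRNA pathway in the germline, *Gsx2* a forebrain homeobox factor and *Ppp2r2d* a regulatory subunit of protein phosphatase 2A. The nearest gene is a name for the place and says nothing of which gene a region acts on.

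Oct4 and Sox2 letters were more frequent in early-opened ESC regions than in the series at large, and AP-1 letters were less frequent. The search used exact letters on both strands of the central 200 bp, in the 1588 regions on chromosomes 1 to 19, X and Y. The OCT4-SOX2 composite was found in 67 regions, 4.22% (exact 95% interval 3.28 to 5.33), against 1.03% of all merged regions. The octamer stood in 6.93% (5.73 to 8.29) against 2.28%, and the SOX letters in 9.07% (7.70 to 10.6) against 3.65%. The KLF letters stood in 17.7% (15.8 to 19.7) against 10.2%. These 4 letter strings can overlap, since the composite ends in the first bases of the octamer and begins with the last bases of the SOX letters read on the other strand. At least 1 of the 4 was present in 33.6% of early-opened ESC regions and in 16.3% of all regions.

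The AP-1 letters (TGANTCA) stood in 12.3% (10.7 to 14.0) of early-opened ESC regions against 16.05% of all regions. Those of TEAD (GGAATGT) stood in 6.55% (5.38 to 7.88) against 5.22%, those of RUNX (TGTGGTT) in 4.79% (3.79 to 5.95) against 5.42%, and the CTCF core (GGNGGCAG) in 7.49% (6.25 to 8.90) against 7.53%. The last 2 intervals include the value of all regions. The E-box (CACGTG) stood in 2.83% against 3.30%. ESRRB letters stood in 0.756% (0.391 to 1.32, 12 regions) against 0.366%. ETS letters (CCGGAAGT) stood in 0.378% (0.139 to 0.821, 6 regions) against 0.869%. GRHL letters (AACNGGTT) stood in 1.20% against 1.45%, and NRF1 letters (GCGCATGCG) in 0.315% against 0.318%.

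The classes most like the early-opened ESC regions differ from them in 1 library of the rule. The 14941 day 1 gains outside the ESC set have a day 1 peak and neither a day 0 nor an ESC peak. Their shares were 1.72% for the composite, 4.77% for the octamer, 5.69% for SOX and 12.2% for KLF, all below the intervals of the early-opened ESC regions, while AP-1 stood in 15.0%. The 1694 ESC regions first seen on days 2 to 9 have neither a day 0 nor a day 1 peak, and their shares of composite (3.37%), SOX (7.99%) and KLF (17.7%) lie within the intervals of the early-opened set, while that of the octamer (4.91%) lies below. They held the AP-1 letters in 6.09%. In the composite, SOX and KLF letters the early-opened ESC regions were close to later ESC regions, and in the AP-1 letters closer to other day 1 gains. Without the regions within 1000 bp of a TSS the composite share was 4.60% against 1.17% of all distal regions, and the AP-1 share 13.4% against 18.3%. The distal AP-1 share was 6.64% in later ESC regions, 15.4% in day 1 gains outside the ESC set and 19.8% in regions with both a day 0 and an ESC peak. A match is a string of letters, and no binding was measured here.

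**Figure D1:**
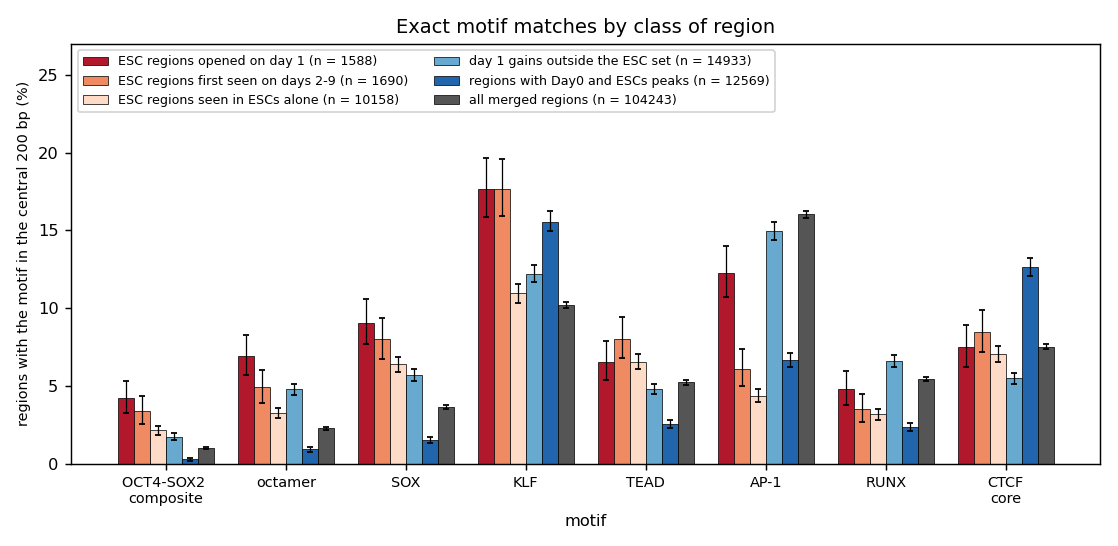
Share of regions, in percent, with an exact match to each motif in the central 200 bp, for early-opened ESC regions and 5 other classes, with exact 95% intervals for counting error. The composite, octamer and SOX bars are tallest in early-opened ESC regions, and their AP-1 bar of 12.3% stands between those of later ESC regions (6.09%) and of day 1 gains outside the ESC set (15.0%).

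Early-opened ESC regions are few within both sets that define them. Of the 13465 ESC regions without a day 0 peak, 11.8% (11.3 to 12.4) had a day 1 peak, while 1694 were first seen on a later day and 10180 in ESCs alone. Of the 16532 day 1 regions without a day 0 peak, 9.62% (9.18 to 10.1) had an ESC peak. These shares restate the rule. With peaks of at least 300 bp alone, 891 regions met it. At its edge, 195 of the 1591 had a day 1 peak of 200 bp, the narrowest in the lists, and 173 an ESC peak of 200 bp. A day 0 peak lay within 500 bp of 78 of them, the nearest at 7 bp, and the median distance to a day 0 peak was 9365 bp. The day 1 and ESC peaks overlapped each other directly in 1526, and in the other 65 they were joined through a peak of another day. Just outside the rule, 111 of the 11562 regions with day 0, day 1 and ESC peaks had a day 0 peak of no more than 200 bp.

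Days 2, 3, 6 and 9 took no part in the choice. A later peak counts wherever it lies in the merged region, so it need not overlap the day 1 or ESC peak. Where single ESC peaks were used unmerged and each later peak had to overlap them, 44.9% of 1714 had all later days. Of the 1591 regions, 1041 had a peak on day 2 (65.4%, 63.0 to 67.8), 1312 on day 3 (82.5%, 80.5 to 84.3), 1235 on day 6 (77.6%, 75.5 to 79.7) and 1090 on day 9 (68.5%, 66.2 to 70.8). Over all regions with a day 1 peak, most of which were open on day 0, these shares were 59.7%, 73.6%, 67.6% and 55.6%. All 4 later days had a peak in 788 regions (49.5%, 47.0 to 52.0) against 44.6% of all day 1 regions. No later day had a peak in 114 (7.17%), against 17.3% of all day 1 regions and 34.3% of day 1 gains outside the ESC set. Day 1 gains outside the ESC set had a peak on day 2 in 38.7%, on day 3 in 53.6%, on day 6 in 42.7% and on day 9 in 30.5%, and on all of these days in 19.8%. The values for early-opened ESC regions lie above these on each day, and below those of regions with both a day 0 and an ESC peak, which ran from 86.6% to 93.6%.

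**Figure D2:**
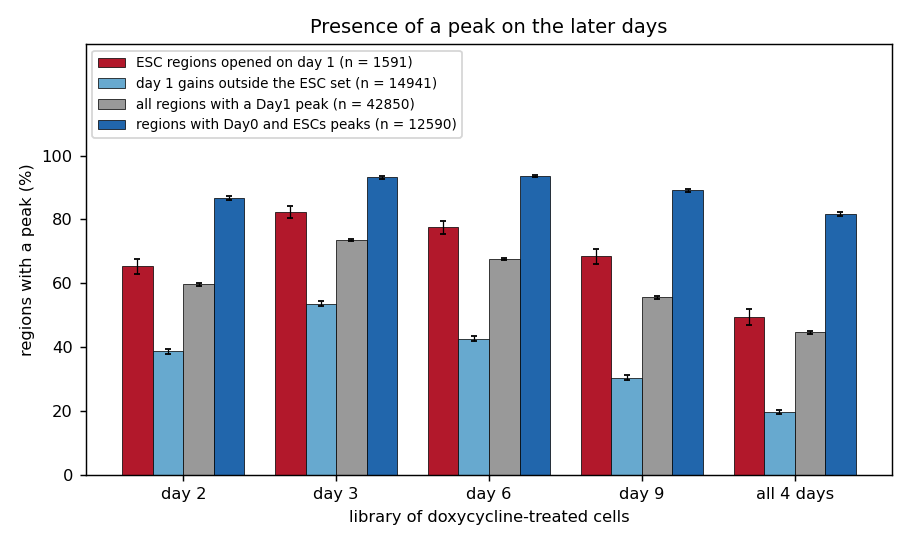
Share of regions, in percent, with a peak on days 2, 3, 6 and 9 and on all of them, for early-opened ESC regions and 3 other classes, with exact 95% intervals for counting error. Early-opened ESC regions lie between day 1 gains outside the ESC set and regions open in both MEFs and ESCs on every day.

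Days 2 and 9, with the lowest shares, also have the shortest peak lists of the treated days, 33174 and 33007 peaks against 48087 on day 3 and 44855 on day 6. Taking the widest 27074 peaks of each library gives every list the length of the ESC list. The day 0 list of 61241 peaks is cut too, so regions with a narrower day 0 peak can enter. The rule then chose a different set of 1788 regions. Their shares were 71.3%, 72.8%, 73.2% and 74.2% on days 2, 3, 6 and 9, and no day stood apart. The 9664 day 1 gains outside the ESC set under this choice had 52.7%, 53.1%, 45.7% and 41.9%. The gap between the classes chosen in this way was present at every day and widest on day 9.

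The rule bears on this gap in 2 ways. The regions had to have a peak in a second library, and wide peaks recur more often than narrow ones. As to the first, gains were here taken from all day 1 regions without a day 0 peak. Each group therefore includes some of the early-opened ESC regions it is set beside. Gains with a day 2 peak had a day 9 peak in 61.0%, those with a day 3 peak in 54.3% and those with a day 6 peak in 64.4%. All 3 lie below the 68.5% of gains with an ESC peak. On day 3 the order was the other way round, with 86.3%, 84.8% and 89.6% of gains that had a day 2, day 6 or day 9 peak, against 82.5%, and on days 2 and 6 the value for an ESC peak lay within the range of the others. As to the second, the only measure of strength in the lists is peak width. Among regions with a day 1 peak of 200 to 249 bp, 20.8% of 432 early-opened ESC regions and 5.95% of 6555 other gains were present on all later days. Among those of 600 bp or more the values were 88.4% of 241 and 68.9% of 1085. The intervals of the classes did not overlap in any of the 5 width bins. Both comparisons were added after the values were seen. The first was not matched for peak width. In the second, the early-opened class still had an ESC peak by the rule and the other gains had none. Whether the rule or the width accounts for the gap was not tested.

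**Figure D3:**
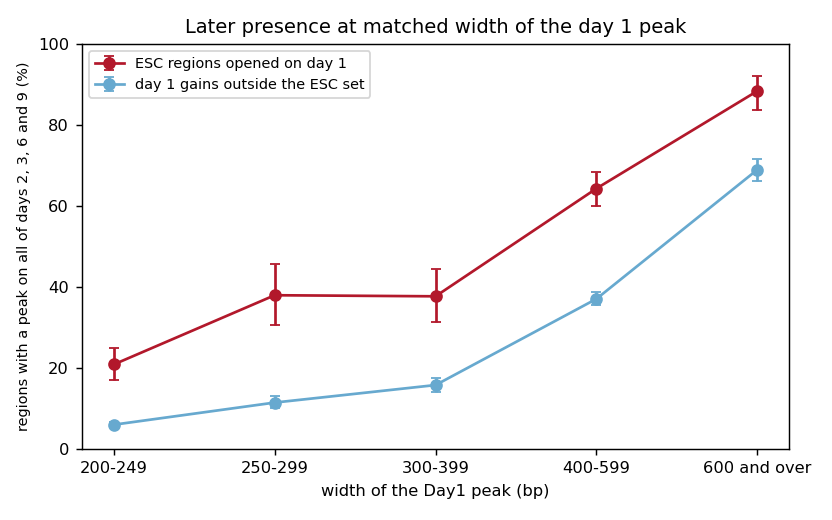
Share of regions, in percent, with a peak on all of days 2, 3, 6 and 9 by the width of the day 1 peak in bp, for early-opened ESC regions and day 1 gains outside the ESC set, with exact 95% intervals for counting error. In both classes the share is lowest for the narrowest and highest for the widest day 1 peaks, and the early-opened ESC regions lie above the other gains in each bin, from 20.8% against 5.95% to 88.4% against 68.9%.

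The patterns over the 4 later days were uneven. After presence on all of them, the most frequent were absence on day 2 alone (150 regions), absence on all (114), absence on day 9 alone (98), and presence on day 3 only or on days 3 and 6 only (82 each). Absence on day 3 alone (27) and presence on days 2 and 9 only (8) were rare. Regions with fewer later peaks had narrower day 1 peaks, with medians of 222.5, 246, 277, 317 and 520 bp for 0, 1, 2, 3 and 4 later days, and their ESC peaks had medians between 315.5 and 445.5 bp. The composite share was 5.10% in the regions present on all later days and 2.63% in the 114 present on none, with wide and overlapping intervals (3.66 to 6.87 and 0.546 to 7.50). For the octamer the shares were 8.66% and 4.39%, again with overlapping intervals.

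Peaks of the early-opened ESC regions were wider on days 3 and 6 than on day 1 or in ESCs. Median widths, over the regions with a peak in the library concerned, were 379, 431, 510, 512 and 461 bp on days 1, 2, 3, 6 and 9, and 405 bp in ESCs. The day 1 gains outside the ESC set widened over the same days, with medians of 270, 345, 420, 392.5 and 350 bp on days 1, 2, 3, 6 and 9, and so did all regions with a day 1 peak (408, 466, 527, 538 and 504 bp). The medians over the whole peak lists lay between 364 and 394 bp in these 6 libraries. In the 788 regions with a peak in all of them, where the set of regions is fixed, the medians were 520, 485, 581, 575, 514 and 445.5 bp. By this median, persistent regions had wider peaks on day 1 than in ESCs.

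Most early-opened ESC regions lay away from promoters. A TSS was within 1000 bp of 241 of them (15.2%, 13.4 to 17.0), and the median distance was 11670 bp. By their centre, 51.9% lay in introns, 39.7% between genes and 8.38% in exons. The TSS-proximal share was 7.78% in day 1 gains outside the ESC set, 18.9% in ESC regions first seen later, 18.8% over all merged regions and 76.5% in regions with both a day 0 and an ESC peak. Within the early-opened ESC regions it was 10.5% in the regions present on all later days and 21.1% in those present on none. The median GC content of the central 200 bp was 48%, being 61.5% near a TSS and 47% elsewhere. Windows of which repeat-masked bases make up at least 50% were 14.0% of early-opened ESC regions, against 20.3% of ESC regions first seen later and 43.8% of regions seen in ESCs alone. The early-opened set therefore holds fewer repeats than the rest of the ESC set outside MEF peaks, and more than other day 1 gains (7.91%).

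**Figure D4:**
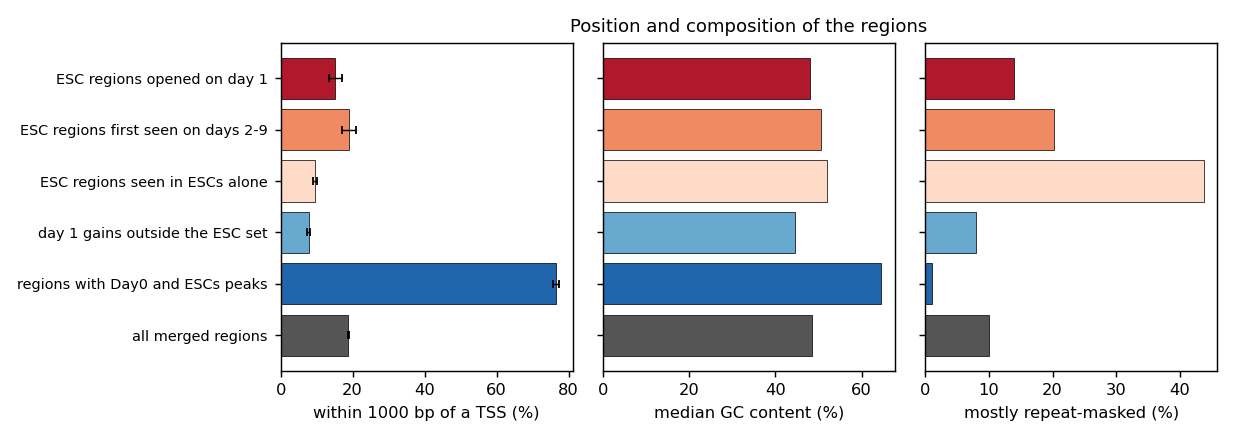
Share of regions within 1000 bp of a TSS (percent, with exact 95% intervals), median GC content of the central 200 bp (percent) and share of regions whose window is mostly repeat-masked (percent), for early-opened ESC regions and 5 other classes. Early-opened ESC regions are mostly distal (15.2% near a TSS) and hold fewer repeats (14.0%) than regions seen in ESCs alone (43.8%).

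Each early-opened ESC region was assigned to the nearest protein-coding TSS within 1000 kb, which named 1413 genes, 6.45% of all 21911. Most had 1 region (1268), and *Etv5*, *Nrp2* and *Oxr1* had 4 each. *Nrp2* encodes a semaphorin and VEGF co-receptor, and its regions lie 63753 to 304502 bp from the TSS, 1 of them present throughout. *Oxr1*, a gene of oxidative stress resistance, had 2 of 4 present throughout, as *Atxn7l1* had 2 of 3 and *Akap7* 1 of 3. Close neighbours were rare, with 19 pairs and no larger run of early-opened ESC regions within 10 kb of each other, and 1553 regions that stood alone. Among 29 pluripotency transcription factors 8 had a region, as did 7 of 25 ESC signalling genes, 6 of 25 DNA methylation and chromatin genes, 5 of 31 mesenchymal genes, 3 of 19 glycolysis genes, 3 of 22 germline genes, 4 of 35 epithelial genes and 1 of 9 genes of the 9TR network, the set of transcription regulators that the study placed in its reprogramming network. The shares were 27.6% and 28.0% in the first 2 lists, 24% in the chromatin list and 16.1% in the mesenchymal list, against 6.45% of all genes. Among all genes with any ESC region assigned, which 28 of the 29 pluripotency factors had, the share was 10.6%. On that base it was 28.6% in the pluripotency, 29.2% in the signalling and 23.8% in the mesenchymal list. The chromatin and germline lists had 25% each, the glycolysis list 17.6%, and the epithelial and 9TR lists 16.7% each. Where a region had to lie in the gene or within 10 kb of it, 4 of 29 pluripotency factors and 1 of 31 mesenchymal genes had one, against 1226 of all 21911 genes. With peaks of at least 300 bp alone, again by the nearest TSS within 1000 kb, 831 of all genes had a region. Among them were 3 of 29 pluripotency factors, 6 of 25 signalling genes, 5 of 31 mesenchymal genes and 1 of 35 epithelial genes.

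**Figure D5:**
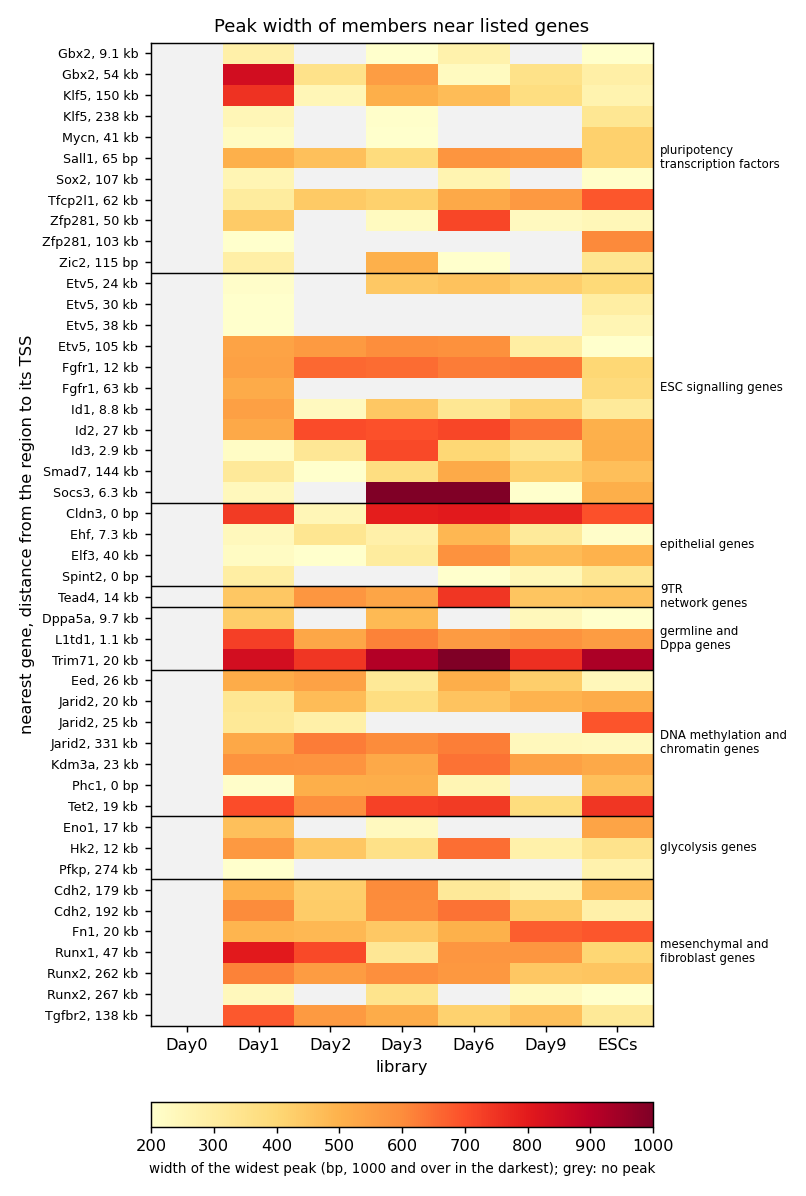
Width in bp of the widest peak in each library for 47 of the 48 early-opened ESC regions assigned to listed genes, one row per region with the distance to the TSS, grouped by list. Grey marks no peak. Of the 47 regions drawn, 28 had a peak in every library from day 1 on, and the day 0 column is empty by the rule.

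Among the pluripotency factors, the region at *Sall1*, a zinc-finger factor of ESCs, had a peak in every library from day 1 on and lay nearest to a TSS, 65 bp downstream of it. It covers chr8:89042639-89044097 of mm10, and its peaks were 504 bp wide after 1 day, 463 bp after 2 days and 566 bp after 9 days, with 2 separate peaks of 384 and 220 bp on day 3 and of 562 and 575 bp on day 6. The ESC peak was 419 bp wide. The day 2 peak (89042667-89043129) overlaps neither the day 1 peak (89043332-89043835) nor the ESC peak (89043506-89043924). It belongs to the region only through peaks of other days. A region of *Tfcp2l1*, a factor of naive pluripotency, lies 61760 bp downstream of its TSS (chr1:118689706-118690423) and was also present throughout, with its widest peak, 687 bp, in ESCs. The region 149852 bp downstream of *Klf5*, a relative of Klf4, had its widest peak on day 1 (750 bp). Its peaks on days 2, 3, 6 and 9 measured 249, 508, 473 and 372 bp, and the ESC peak 266 bp. A region 54057 bp from *Gbx2*, a homeobox factor downstream of LIF signalling, also had its widest peak, 844 bp, on day 1, against 287 bp in ESCs.

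The other regions of this list had peaks on some of the later days or on none. The region 115 bp upstream of *Zic2* had peaks on days 1, 3 and 6 and in ESCs but not on days 2 and 9. *Zfp281*, a zinc-finger partner of the core factors, had 2 regions. The nearer, at 49550 bp, lacked a day 2 peak and was 714 bp wide on day 6 against 2 peaks of 244 and 233 bp in ESCs, and the farther, at 102885 bp, had a peak of 200 bp on day 1 and of 604 bp in ESCs and none on days 2, 3, 6 and 9. The second region of *Klf5*, at 238139 bp, lacked peaks on days 2, 6 and 9, and that of *Gbx2*, at 9059 bp, on days 2 and 9. *Mycn* had a region 40976 bp away that was seen on days 1 and 3 and in ESCs, and *Sox2* one 107350 bp away that was seen on days 1 and 6 and in ESCs. No region was assigned to *Pou5f1*, *Nanog*, *Esrrb* or *Zfp42*. The rule leaves out regions with a day 0 peak. *Pou5f1* and *Esrrb* had a day 0 peak within 1000 bp of a TSS, and *Nanog* had one within 10 kb. On day 1 a peak within 10 kb was called at *Nanog*, and none at *Pou5f1*, *Esrrb* or *Zfp42*. A missing region does not by itself show whether a locus had a day 1 peak.

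The 7 signalling genes with a region were *Id1*, *Id2*, *Id3*, *Fgfr1*, *Socs3*, *Smad7* and *Etv5*. *Id1*, *Id2* and *Id3*, targets of BMP signalling that block differentiation factors, each had a region with a peak in every library from day 1 on, at 8754, 27208 and 2900 bp from the TSS. The *Id3* region was widest on day 3, with 217, 328, 709, 401 and 336 bp on the 5 treated days and 508 bp in ESCs. It lies 322 bp from a day 0 peak. The *Id2* region was between 504 and 713 bp wide in all 6 libraries. *Fgfr1*, a receptor of FGF signals, had 2 regions with unlike later days. The intronic one, 12434 bp from a TSS, held 544, 657, 653, 628, 634 and 400 bp on days 1, 2, 3, 6 and 9 and in ESCs, while the one at 63248 bp was 517 bp wide on day 1 and 386 bp in ESCs and had no peak on days 2, 3, 6 and 9. *Socs3*, the feedback inhibitor of LIF and STAT3 signals, had a region 6261 bp upstream that was 235 bp wide on day 1, absent on day 2 and 1054 and 1087 bp wide on days 3 and 6. *Smad7*, the inhibitor of TGF-beta signals, had a distant region (143818 bp) present throughout. *Etv5*, a target of FGF signals and a factor of ESC self-renewal, had 4 regions, of which 1 was present throughout and 2 were seen on day 1 and in ESCs only.

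Of the epithelial genes, *Cldn3*, a tight-junction claudin, had its TSS covered. The region (chr5:134985616-134986449, sequence above) had single peaks of 736, 792, 802 and 776 bp on days 1, 3, 6 and 9 and of 694 bp in ESCs. Day 2 stood apart with 2 narrow peaks of 248 and 220 bp. *Ehf* and *Elf3*, epithelial ETS factors, had regions at 7277 and 40304 bp that were narrow on day 1 (235 and 219 bp) and widest on day 6 (485 and 585 bp). *Spint2*, an inhibitor of membrane serine proteases, had its TSS covered and lacked peaks on days 2 and 3. Neither *Cdh1* nor *Epcam* had a region assigned. *Tead4*, the one 9TR gene with a region, had it in an intron at 13560 bp, with 446, 572, 532, 744, 450 and 457 bp over the 6 libraries.

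In the germline list, *L1td1*, an RNA-binding protein of pluripotent cells, had an intronic region 1113 bp from its TSS (chr4:98727861-98728639) with an octamer match and nearly constant widths of 728, 529, 616, 560, 583 and 558 bp. *Trim71*, the target of let-7 that holds back differentiation, had 1 of the 5 regions with the widest ESC peak among those present throughout, 927 bp, and 1041 bp on day 6. The region of *Dppa5a* was present on days 1, 3 and 9 and in ESCs only. The other regions with the widest ESC peaks belong by distance to *1700019D03Rik* (1317 bp), *Epp13* (997 bp), *D630039A03Rik* (964 bp) and *Itprid1* (929 bp). The first covers a TSS, and its widest peaks on days 1 to 9 were 354 to 587 bp.

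Chromatin genes had 8 regions over 6 genes. *Tet2*, a 5-methylcytosine dioxygenase, *Kdm3a*, a histone H3K9 demethylase, *Eed*, a core subunit of PRC2, and *Jarid2*, a PRC2 partner, each had a region present throughout at 19103, 23107, 25976 and 20302 bp. Of the other 2 regions of *Jarid2*, the one at 330579 bp was present throughout and the one at 24776 bp had no peak on days 3, 6 and 9. The region over a TSS of *Phc1*, a PRC1 subunit, had a day 1 peak of 209 bp, 507 and 510 bp on days 2 and 3, and none on day 9. It lies 405 bp from a day 0 peak. Of glycolysis, *Hk2* had an intronic region present throughout, while those of *Eno1* and *Pfkp* were seen on 2 and 1 of the treated days.

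The list of mesenchymal genes, set beside the others as a contrast, had regions too. *Fn1*, *Runx1*, *Tgfbr2*, *Cdh2* and *Runx2* each had at least 1 region present throughout, at 20140 to 262434 bp from the TSS and none near a promoter. The *Runx1* region in an intron was widest on day 1 (801 bp) and 406 bp wide in ESCs, and that upstream of *Fn1* was 493 bp wide on day 1 and 686 bp in ESCs.

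Promoters form a small group of their own. A protein-coding TSS was covered by 104 early-opened ESC regions, 27 of them with a peak in every library from day 1 on, and the following were chosen from these after their values were seen. *Cxadr*, an adhesion receptor of tight junctions, had the widest day 1 peak of the 27, 844 bp, and 579 bp in ESCs. *Lemd1* held 753 to 827 bp on days 1 to 9 and 448 bp in ESCs. The regions of *Cxadr* and *Lemd1* lie 617 and 701 bp from a day 0 peak. *Perp*, a desmosomal protein, had peaks of 389, 316, 535, 713 and 586 bp on the treated days and a narrower one of 214 bp in ESCs. *Pim2*, a kinase downstream of STAT3, and *Tert*, the telomerase catalytic subunit, had narrow day 1 peaks of 218 and 255 bp that were 558 and 572 bp wide on day 6 and 507 and 564 bp in ESCs. In these 2 the day 1 peak is near the narrowest in the lists.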

How the data were processed

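Read pairs were trimmed by the authors with Trimmomatic and aligned with Bowtie2 to the mm10 genome. Duplicates were removed (Picard), and each library was then reduced to a common depth whose value is not given in the sources used here. They called peaks in each library alone with MACS2 (no model, q-value cut-off 0.05). The deposited lists hold the place of each peak and no score, so the reads behind a peak are unknown, and peak width is the only quantity.

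Peaks were merged where they touched or overlapped, with Python 3.11.15, numpy 2.4.6, scipy 1.17.1 and pysam 0.24.0. Merging gave the same regions as BEDTools 2.31.1, and the selection was tested on simulated peaks. Genes are those of GENCODE M21 (basic set), and sequence was read from the RefSeq copy of GRCm38.p6, the mm10 build. Positions count from 1. The TSS distance runs from the edge of a region to the nearest annotated transcript start, an intron is any place inside a gene outside its exons, and shares carry exact (Clopper-Pearson) 95% intervals. Up to 6 genes per list were named, by presence on later days and then by distance, with the 5 genes of most regions and the 5 widest ESC peaks; 1 region of the chromatin list is not reported here. The 5 classes, lists, motifs and named genes were chosen with earlier results of these data known, so no count supports another. No p-value was computed.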

Additional observations from a re-analysis of the deposited data

How the results depend on the processing

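The number of regions, the later-day, TSS and motif shares, the counts of listed genes and the median widths were recomputed under alternative settings, 1 of them (the last named below) chosen after seeing the data. The other values, among them later-day patterns, width bins, repeat and GC content, were not recomputed. Of the 165 recomputed values, 123 stayed and 42 moved, and no value can reverse since none has a sign. Shares stayed if within the main interval, and counts if within 1.5 times the main count. Median widths stayed if they changed by no more than the standard deviation of the widths, a loose limit. Merging within 300 bp gave 12.9% of ESC regions and 10.7% of day 1 regions without a day 0 peak. Peaks of at least 300 bp left 891 regions, with day 2, 3 and 9 shares of 60.0%, 79.0% and 62.9%, all later days in 42.9%, 9.09% of day 1 regions, 20.8% near a TSS, 3 pluripotency, 1 epithelial and 2 9TR genes of 831 genes in all, and a CTCF share of 9.21%. The widest 27074 peaks of each library, day 0 included, chose 1788 regions and gave 71.3%, 72.8%, 73.2% and 74.2% on the 4 days and 15.6% of day 1 regions. Without days 2 and 9 the share present from day 1 on was 70.1%, fewer libraries being required. Unmerged ESC peaks gave 62.8% on day 2, 65.2% on day 9, 44.9% on all days and 12.4% of ESC regions. The TSS share was 13.0% within 500 bp, 21.0% within 2500 bp and 10.9% with protein-coding starts. Within 100 kb, 2 mesenchymal genes had a region, and within 10 kb of the gene 4 pluripotency, 1 glycolysis and 1 mesenchymal gene. A 300 bp window gave 8.69% for the octamer and TEAD, 11.1% for SOX and CTCF, 23.9% for KLF, 4.09% for the E-box, 16% for AP-1 and 6.80% for RUNX, a longer window holding more letters. Centring on the ESC peak gave 10.6% for AP-1 and 3.72% for RUNX. Added later, a day 1 peak of at least 300 bp gave 64.2% on all later days. The restriction to the numbered chromosomes, X and Y, a 500 bp margin around day 0 peaks and direct overlap of day 1 and ESC peaks moved no value. No paired analysis was possible because no time-point has a replicate.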
